A study of Homo sapiens with 9 samples.

Results

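The 6 genes described here encode the fibrinogen chains FGA, FGB and FGG, the lipopolysaccharide-binding protein LBP, and the protease inhibitors SERPINA1 and SERPINA3, all proteins that the liver secretes into blood plasma. They were picked by symbol from 51796 gene identifiers in the count table, because FGB, LBP and SERPINA3 had changed strongly in these same libraries. Their changes under treatment are therefore given as a description and carry no test. All 6 passed the filter on low counts, which left 18292 genes.

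RNA was sequenced from A549, a human lung adenocarcinoma cell line labelled epithelial, in 3 groups of 3 libraries. One group was treated with MS023, an inhibitor of the type I protein arginine methyltransferases, and another with GSK591, an inhibitor of PRMT5, each at 1 µM for 7 days. The third group received DMSO. Type I enzymes place asymmetric dimethyl marks on arginine and PRMT5 places symmetric ones. Plates were seeded with 0.4 × 1e5 cells for MS023, 0.4 × 1e5 for GSK591 and 0.2 × 1e5 for DMSO, so that treatment and seeding cannot be told apart in either comparison with DMSO, while the inhibitor groups were seeded alike. RNA was extracted in triplicate, but nothing says that the triplicates were separate cultures, and errors and p-values then cover only how much these libraries varied, which could be technical variation alone. Libraries held 31398075 to 51244525 counts, and GSK591 3 stood apart with 933 CPM (read counts scaled to library size by TMM) of mitochondrial rRNA, against 0.410 to 20.7 CPM in the others.

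Acute-phase proteins are plasma proteins whose output by hepatocytes changes during inflammation. Interleukin-6 acts through its receptor, the shared subunit IL6ST (gp130), the JAK kinases and STAT3 to raise fibrinogen, LBP, SERPINA1 and SERPINA3, and C/EBP factors take part in the same response. Alveolar epithelial cells can also make fibrinogen when stimulated by interleukin-6 and glucocorticoid, and A549 is a common model for this.

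The fibrinogen genes lie side by side on chromosome 4, and their promoters are shown as a description. RefSeq promoters (GRCh38.p14), from 250 bases before to 50 bases after the annotated start, were held for 5 of the 6 genes. Those of FGA, the first FGB start and FGG are printed 5′ to 3′ on the strand of the gene, with matches to either of 2 motifs in capitals. The second FGB start and the promoters of SERPINA1 and SERPINA3 were searched but are not printed. The motifs, searched on both strands, were CTGGGAA (the core of the interleukin-6 response element) and TTGCNNAA (a C/EBP site).
FGA, chr4:154590693-154590992, minus strand: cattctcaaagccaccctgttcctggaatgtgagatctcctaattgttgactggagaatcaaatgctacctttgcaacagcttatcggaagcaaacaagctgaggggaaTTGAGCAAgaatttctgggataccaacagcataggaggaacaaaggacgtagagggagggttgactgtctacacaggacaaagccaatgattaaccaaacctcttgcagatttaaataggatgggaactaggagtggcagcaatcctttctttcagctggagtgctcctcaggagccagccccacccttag
FGB, first start, chr4:154562730-154563029, plus strand: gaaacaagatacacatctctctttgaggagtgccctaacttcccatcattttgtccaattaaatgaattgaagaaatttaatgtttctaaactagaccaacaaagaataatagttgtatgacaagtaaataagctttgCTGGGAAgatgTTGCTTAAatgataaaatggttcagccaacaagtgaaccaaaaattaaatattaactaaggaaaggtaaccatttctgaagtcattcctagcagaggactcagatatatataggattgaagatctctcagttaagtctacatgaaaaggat
FGG, chr4:154612607-154612906, minus strand: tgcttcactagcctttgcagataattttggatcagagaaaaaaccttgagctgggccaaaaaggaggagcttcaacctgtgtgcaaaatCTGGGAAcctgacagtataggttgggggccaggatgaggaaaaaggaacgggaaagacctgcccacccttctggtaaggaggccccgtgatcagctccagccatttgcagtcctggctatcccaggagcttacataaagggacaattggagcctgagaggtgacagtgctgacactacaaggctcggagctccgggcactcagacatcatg

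The FGB promoter held both motifs, with CTGGGAA at bases -112 to -106 from the start and TTGCNNAA at -101 to -94, and they did not overlap. FGA held TTGCNNAA on the other strand at -141 to -134, and FGG held CTGGGAA at -161 to -155. Neither annotated start of SERPINA1 nor the SERPINA3 promoter had a match. Among 35116 promoters of this length, 10.8% held CTGGGAA, 10.5% TTGCNNAA, and 383 (1.09%) both. A match is a run of letters and not a bound site, and any link between the motifs and the changes was not tested.

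Fibrinogen is the clotting precursor that thrombin converts to fibrin. It is built from pairs of the Aα, Bβ and γ chains, encoded by FGA, FGB and FGG, and in liver cells the Bβ chain is often described as limiting for assembly. The 3 genes were among the more abundant transcripts of A549. All 3 chains were higher with MS023 and lower with GSK591 than with DMSO, FGB and FGG being much lower with GSK591 and FGA less so. For the background, 51% of all genes tested passed with MS023 (25.1% higher and 25.9% lower), and 62.6% passed with GSK591 (30.1% higher and 32.4% lower), at an edgeR adjusted p under 0.05. In bulk RNA, fewer cells of a type and less RNA per cell cannot be told apart. Because these contrasts chose the genes, nothing is read from the counts of members. Nor is anything read from groups that did not overlap, since the share of all genes without overlap was not counted.

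FGB (ENSG00000171564; hg19 chromosome 4, 155484108 to 155492238), the gene of the Bβ chain, had 455, 443 and 448 CPM in the MS023 libraries, 51.0, 42.6 and 46.3 CPM in the GSK591 libraries, and 280.3, 259.6 and 232 CPM in the DMSO libraries. The groups did not overlap, and the GSK591 libraries were the low ones. The fitted log2 difference was 0.80 ± 0.07 (SE; 1.75-fold higher) for MS023 over DMSO and -2.46 ± 0.07 (5.52-fold lower) for GSK591 over DMSO. With GSK591, FGB ranked 18 among all falls, ordered by fitted log2 change.

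FGG (ENSG00000171557; hg19 chromosome 4, 155525286 to 155534119) encodes the γ chain, which carries a binding site for platelet integrin. It had 297, 266 and 269 CPM with MS023, 53.6, 47.8 and 51.6 CPM with GSK591, and 222, 216 and 202 CPM with DMSO. The log2 difference from DMSO was 0.38 ± 0.05 (1.30-fold higher) with MS023, the smallest MS023 difference among the 6 genes. With GSK591 it was -2.07 ± 0.06 (4.19-fold lower). The MS023 libraries stood above all DMSO libraries and the GSK591 libraries below them.

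FGA (ENSG00000171560; hg19 chromosome 4, 155504278 to 155511918) encodes the Aα chain, whose end thrombin removes to start clotting. Its levels were 391, 357 and 358 CPM with MS023, 132, 127 and 131 CPM with GSK591, and 214, 205 and 201 CPM with DMSO. The log2 difference was 0.84 ± 0.04 (1.79-fold higher) with MS023 and -0.66 ± 0.04 (1.58-fold lower) with GSK591. Again no library of one group overlapped another group, but FGA kept more of its DMSO level under GSK591 than FGB or FGG did.

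**Figure D1:**
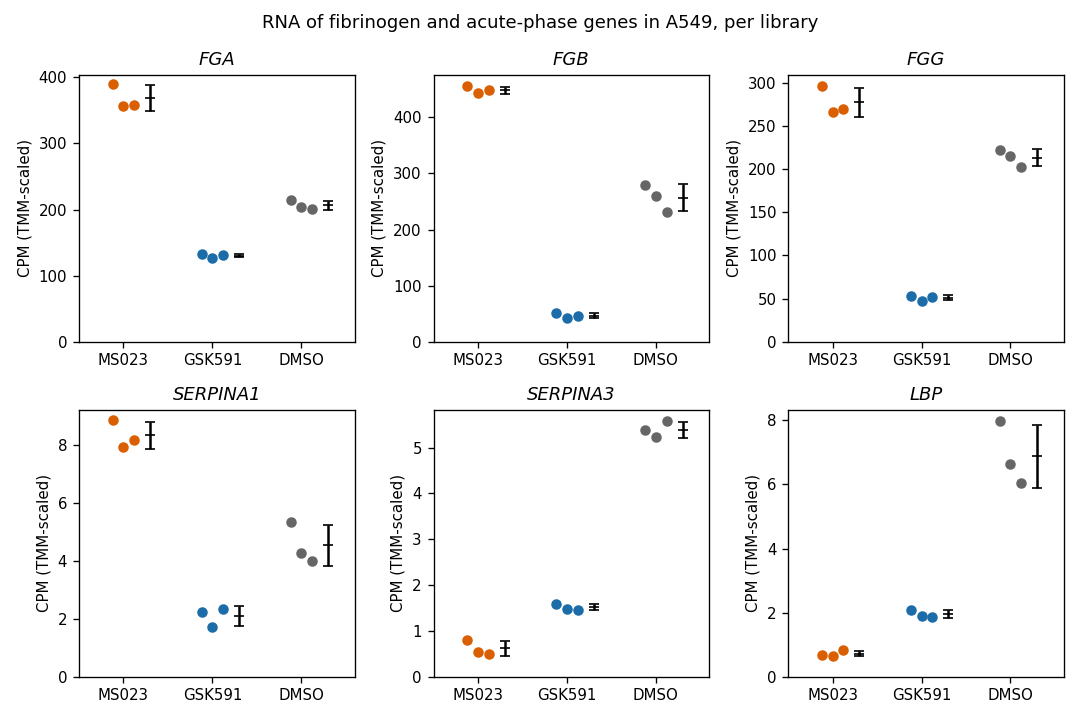
TMM-scaled CPM of the 6 genes in each library (points, linear axes from 0), with the mean and SD of each group in black beside them, for MS023, GSK591 and DMSO (n = 3 each). FGA, FGB, FGG and SERPINA1 are highest with MS023 and lowest with GSK591, while SERPINA3 and LBP are highest with DMSO and lowest with MS023.

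The balance of the chains differed between the groups. Levels of different genes can be compared only per transcript length, in FPKM (fragments scaled to transcript length and library depth). Summed over the 3 genes, fibrinogen was 498 ± 32.7 FPKM with MS023, 95.3 ± 3.71 FPKM with GSK591 and 323 ± 16.2 FPKM with DMSO (SD, n = 3 each). FGA supplied 27.2 ± 0.384% of this sum with MS023, 48.9 ± 0.337% with GSK591 and 23.4 ± 1.10% with DMSO. FGB supplied 43.0 ± 1.39%, 22.6 ± 1.01% and 40.3 ± 1.92% in MS023, GSK591 and DMSO libraries. The leading chain was thus FGB in every MS023 and DMSO library and FGA in every GSK591 library.

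FGG supplied 29.8 ± 1.02% with MS023, 28.5 ± 0.689% with GSK591 and 36.4 ± 1.14% with DMSO, so its share was lower with either inhibitor. Per FGA, the level of FGB was 1.51, 1.65 and 1.59 in the MS023 libraries, 0.490, 0.446 and 0.451 in the GSK591 libraries, and 1.87, 1.74 and 1.57 in the DMSO libraries. The MS023 and DMSO ratios overlapped, and the GSK591 ratios lay far below both. Per FGA, FGG stood at 1.10 ± 0.0234 with MS023, 0.582 ± 0.0104 with GSK591 and 1.56 ± 0.0658 with DMSO. Shares of counts, without division by length, gave FGA 33.7% with MS023, 57.2% with GSK591 and 30.5% with DMSO.

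**Figure D2:**
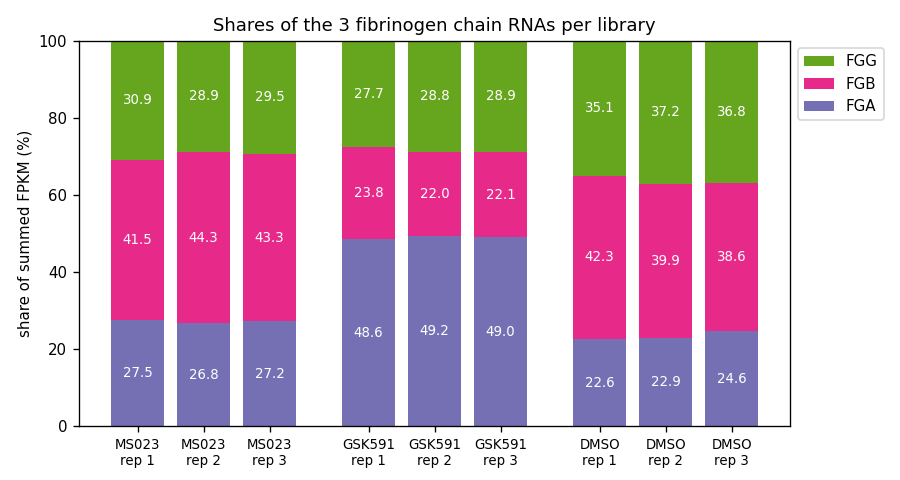
Share of summed fibrinogen FPKM (percent, printed in the bars) supplied by FGA, FGB and FGG in each of the 9 libraries, for MS023, GSK591 and DMSO. FGB is the largest part of every MS023 and DMSO library, and FGA, at 48.6% to 49.2%, of every GSK591 library.

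SERPINA1 and SERPINA3 belong to one serpin cluster on chromosome 14, with 221.7 kb between them. Serpins trap a protease by changing shape. The pair went opposite ways with MS023. SERPINA1 encodes antitrypsin, which inhibits neutrophil elastase in the lung. It had the group order of the fibrinogen chains, at a far lower level. SERPINA3 encodes antichymotrypsin, which inhibits cathepsin G and mast cell chymase, and it was lower with both inhibitors.

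SERPINA1 (ENSG00000197249; hg19 chromosome 14, 94843084 to 94857030) had 8.86, 7.94 and 8.18 CPM with MS023, 2.24, 1.69 and 2.33 CPM with GSK591, and 5.35, 4.25 and 4.0 CPM with DMSO. These levels rest on 1107 counts in MS023, 251 in GSK591 and 552 in DMSO libraries. The log2 difference from DMSO was 0.90 ± 0.12 (1.86-fold higher) with MS023 and -1.10 ± 0.14 (2.15-fold lower) with GSK591. The groups were separate, the highest GSK591 library lying below the lowest DMSO library.

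SERPINA3 (ENSG00000196136; hg19 chromosome 14, 95078714 to 95090392) had 0.800, 0.546 and 0.494 CPM with MS023, 1.58, 1.48 and 1.46 CPM with GSK591, and 5.38, 5.22 and 5.58 CPM with DMSO. Counts were low with MS023, at 41, 21 and 21, against 51, 63 and 67 with GSK591 and 172, 241 and 258 with DMSO. The log2 difference was -3.10 ± 0.16 (8.60-fold lower) with MS023, rank 24 among falls, and -1.84 ± 0.14 (3.58-fold lower) with GSK591, rank 84. All 3 groups were separate, with MS023 lowest. Another annotated gene overlaps SERPINA3, and its own FPKM was at most 0.0258 in any library.

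LBP (ENSG00000129988; hg19 chromosome 20, 36974759 to 37005665) binds bacterial lipopolysaccharide and hands it to CD14, from which it reaches TLR4 and its partner LY96 (MD-2). It had 0.683, 0.651 and 0.823 CPM with MS023, 2.08, 1.90 and 1.85 CPM with GSK591, and 7.97, 6.63 and 6.05 CPM with DMSO. In counts, LBP had 35, 25 and 35 with MS023, 67, 81 and 85 with GSK591, and 255, 306 and 280 with DMSO. Its order of groups was that of SERPINA3, with no overlap. The log2 difference from DMSO was -3.25 ± 0.15 (9.48-fold lower) with MS023, rank 17 among falls, and -1.82 ± 0.13 (3.53-fold lower) with GSK591, rank 91.

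**Figure D3:**
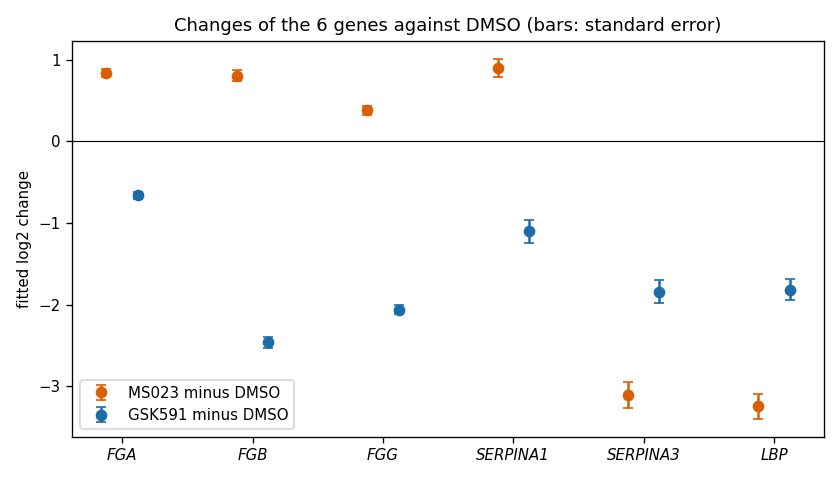
Fitted log2 change of each of the 6 genes (points, bars are 1 SE) for MS023 minus DMSO (orange) and GSK591 minus DMSO (blue). FGA, FGB, FGG and SERPINA1 lie on opposite sides of 0 for the inhibitors, and SERPINA3 and LBP lie below 0 for both, lower with MS023.

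Set directly against each other, the inhibitors differed as follows, given as a description of genes chosen for their changes. MS023 over GSK591, the log2 difference was 3.27 ± 0.07 for FGB (9.63-fold higher), 2.44 ± 0.06 for FGG (5.44-fold), 2.0 ± 0.13 for SERPINA1 (4.0-fold) and 1.5 ± 0.04 for FGA (2.83-fold). It was -1.43 ± 0.18 for LBP (2.69-fold lower) and -1.26 ± 0.19 for SERPINA3 (2.40-fold lower). Of all genes tested, 65.4% passed, 33.6% being higher and 31.7% lower with MS023 than with GSK591. The comparisons with DMSO share the same 3 DMSO libraries.

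Per length, the fibrinogen chains were abundant and the other genes scarce. In DMSO cells FGB averaged 130.0 ± 11.8 FPKM, FGG 117 ± 5.95 and FGA 75.3 ± 0.675, and FGB and FGG overlapped between libraries. With MS023 the order was FGB (214 ± 8.45), FGG (149 ± 14.7) and FGA (136 ± 10.4), the last 2 overlapping. With GSK591 it was FGA (46.6 ± 1.53), FGG (27.1 ± 0.405) and FGB (21.6 ± 1.81), with no overlap. SERPINA1 had 4.25 ± 0.417 FPKM with MS023, 1.13 ± 0.258 with GSK591 and 2.47 ± 0.263 with DMSO. In DMSO cells SERPINA3 had 3.12 ± 0.0592 FPKM and LBP 2.90 ± 0.448. FGB in DMSO cells stood at percentile 96.9 of 17818 genes, and LBP at 41.7.

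Across the 9 libraries FGA, FGB, FGG and SERPINA1 had one pattern and LBP and SERPINA3 another. Pearson r of log2 CPM among the first 4 ran from 0.902 (FGA and FGG) to 0.995 (FGB and FGG), and it was 0.987 between LBP and SERPINA3. Between the sets it ran from -0.440 (FGA and LBP) to 0.0228 (FGG and SERPINA3). These values describe 3 groups of 3 libraries and are not evidence of a shared cause. The genes most like FGB were GGCX (r = 0.999), DHTKD1 (0.999) and AGFG1 (0.999). GGCX, the enzyme that carboxylates vitamin K-dependent clotting factors, averaged 48.8 CPM with MS023, 24.4 with GSK591 and 41.8 with DMSO.

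Most like LBP were THSD4 (r = 0.997), SPTSSA (0.996), a subunit of the enzyme that starts sphingolipid synthesis, and CHRDL2 (0.995). SPTSSA averaged 115 CPM with MS023, 162 with GSK591 and 307 with DMSO, and it was also among the 3 most like SERPINA3 (0.995). The others most like SERPINA3 were MRPS6 (0.996), a mitochondrial ribosomal protein, and NTRK3 (0.995), a neurotrophin receptor that averaged 22.7 CPM with MS023, 48.7 with GSK591 and 143 with DMSO.

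Other acute-phase genes did not move as one group. Of 26 listed positive acute-phase proteins besides the 6, 12 could be tested; 4 rose and 4 fell with MS023, and 7 rose and 2 fell with GSK591. Their median log2 change was -0.14 with MS023 and 0.66 with GSK591, while over all genes it was -0.00 and 0.01. For this list and those below, the background over all genes tested was 25.1% higher and 25.9% lower with MS023. With GSK591 it was 30.1% higher and 32.4% lower. The list counts were not tested against these shares. CP, the copper-carrying ferroxidase ceruloplasmin, had the pattern of FGB. It averaged 249 ± 10.2 CPM with MS023, 27.5 ± 2.14 with GSK591 and 158 ± 21.4 with DMSO, with log2 changes from DMSO of 0.65 ± 0.08 with MS023 (edgeR adjusted p = 6.08e-06) and -2.52 ± 0.08 with GSK591 (adjusted p = 6.08e-12).

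C3, the central complement protein, averaged 10.6 ± 0.639 CPM with MS023, 84.9 ± 1.56 with GSK591 and 65.3 ± 1.88 with DMSO. It fell with MS023 (log2 -2.62 ± 0.05, adjusted p = 4.86e-14) and rose with GSK591 (0.38 ± 0.04, adjusted p = 1.85e-06, lost on FPKM at 0.0714 to 0.136). SERPINF2 (antiplasmin) rose with MS023, by 1.79 ± 0.11 (adjusted p = 8.03e-09), as did LRG1, by 1.23 ± 0.18 (adjusted p = 4.96e-05).

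Of the negative acute-phase proteins, which inflammation lowers, 6 of 12 could be tested; 5 rose and 1 fell with MS023, and 2 rose and 1 fell with GSK591 (medians 0.51 and -0.01). Without DMSO 2 or without GSK591 3, 1 rose with GSK591, and without GSK591 1, 2 fell with it. Without DMSO 1, DMSO 3, MS023 1 or MS023 3, each left out alone, 0 fell with MS023. AHSG, 1 of the 5 rises with MS023 (log2 0.58 ± 0.23, edgeR adjusted p = 0.0485), lost its call in 11 of 13 alternatives. Its adjusted p over all alternatives was 0.0385 to 0.178. TF (transferrin, the iron carrier) averaged 7.71 ± 0.566 CPM with MS023, 0.742 ± 0.176 with GSK591 and 5.66 ± 0.297 with DMSO. Its log2 change with GSK591 was -2.91 ± 0.14 (edgeR adjusted p = 3.06e-10), and its MS023 rise of 0.45 ± 0.10 (adjusted p = 0.00163) did not pass on FPKM (adjusted p 0.108 to 0.236). SERPINA6, the corticosteroid-binding globulin 53.4 kb from SERPINA1, averaged 13.3 ± 0.571 CPM with MS023, 2.86 ± 0.598 with GSK591 and 3.18 ± 0.226 with DMSO. It rose with MS023 by 2.07 ± 0.11 (adjusted p = 1.02e-09).

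Among coagulation and fibrinolysis genes, 24 of 31 were tested; 7 rose and 12 fell with MS023, and 13 rose and 6 fell with GSK591 (medians -0.17 and 0.29). F7, the factor that starts clotting with tissue factor, had 3.80 ± 0.116 CPM with MS023, 0.449 ± 0.0860 with GSK591 and 1.82 ± 0.176 with DMSO. It rose with MS023 (log2 1.07 ± 0.13, edgeR adjusted p = 9.63e-06) and fell with GSK591 (-2.0 ± 0.19, adjusted p = 2.94e-07). FGL1, a liver-secreted relative of the fibrinogen chains, averaged 193 ± 8.30 CPM with MS023, 34.2 ± 0.978 with GSK591 and 51.0 ± 3.39 with DMSO, with log2 changes of 1.92 ± 0.05 (adjusted p = 5.16e-13) and -0.58 ± 0.05 (adjusted p = 8.57e-08). F2 (prothrombin), which encodes the zymogen of the enzyme that cuts fibrinogen, fell with both (log2 -0.88 ± 0.09 with MS023, adjusted p = 2.41e-06, and -0.80 ± 0.09 with GSK591, adjusted p = 3.54e-06).

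PLAU and THBD went the other way. PLAU (urokinase, which activates plasminogen) averaged 10.6 ± 0.145 CPM with MS023, 102 ± 4.72 with GSK591 and 43.5 ± 1.46 with DMSO, with log2 changes of -2.03 ± 0.05 (edgeR adjusted p = 2.34e-13) and 1.24 ± 0.04 (adjusted p = 8.48e-12). THBD (thrombomodulin) likewise changed by -1.20 ± 0.06 (adjusted p = 1.4e-09) and 1.11 ± 0.06 (adjusted p = 4.99e-10). TFPI, which blocks the factor VIIa complex, instead rose with MS023 (0.26 ± 0.04, adjusted p = 4.54e-05, lost on unfiltered FPKM at 0.106) and fell with GSK591 (-0.71 ± 0.04, adjusted p = 7.78e-10).

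Of 20 genes of the LBP family and lipopolysaccharide recognition, 9 were tested; 5 rose and 1 fell with MS023, and 2 rose and 3 fell with GSK591 (medians 0.53 and -0.15), of which 1 fell without DMSO 1 and GSK591 3. CD14, the receptor to which LBP delivers lipopolysaccharide, averaged 6.40 ± 0.624 CPM with MS023, 7.46 ± 0.431 with GSK591 and 8.27 ± 0.635 with DMSO; it fell with MS023 (log2 -0.37 ± 0.09, edgeR adjusted p = 0.00265) and did not pass with GSK591 (-0.15 ± 0.09, adjusted p = 0.159). TLR4 had 14 counts in the MS023 libraries, 50 in GSK591 and 6 in DMSO, and passed as higher with GSK591 only on these few counts (adjusted p = 0.00124). LY96 had 3, 21 and 10 counts in MS023, GSK591 and DMSO libraries, too few to test.

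BPIFB1, a secreted airway protein of the LBP fold, averaged 18.6 ± 0.553 CPM with MS023, 0.365 ± 0.194 with GSK591 and 1.40 ± 0.220 with DMSO. It rose by 3.75 ± 0.13 with MS023 (edgeR adjusted p = 1.4e-11) and fell by 1.85 on the log2 scale with GSK591 (SE 0.24, adjusted p = 9.89e-06). PLTP, the phospholipid transfer protein, changed by -0.02 ± 0.17 with MS023 (adjusted p = 0.934) and fell with GSK591 (-0.65 ± 0.18, adjusted p = 0.0055), a call lost without DMSO 1 and GSK591 3 (adjusted p = 0.0792).

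Of 30 other serpins, 17 were tested; 6 rose and 8 fell with MS023, and 8 rose and 4 fell with GSK591 (medians 0.13 and 0.05). SERPINE2 (protease nexin) averaged 31.3 ± 0.643 CPM with MS023, 174 ± 9.16 with GSK591 and 56.1 ± 3.07 with DMSO; it fell with MS023 (log2 -0.84 ± 0.05, edgeR adjusted p = 2.25e-09) and rose with GSK591 (1.63 ± 0.05, adjusted p = 1.77e-12). SERPINB9, an intracellular inhibitor of granzyme B, fell with both (log2 -0.73 ± 0.04 with MS023, edgeR adjusted p = 1.09e-09, and -0.58 ± 0.04 with GSK591, adjusted p = 5.45e-09). SERPINI1 (neuroserpin) rose with both, by 0.90 ± 0.09 with MS023 (adjusted p = 1.32e-06) and 0.82 ± 0.09 with GSK591 (adjusted p = 2.24e-06).

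**Figure D4:**
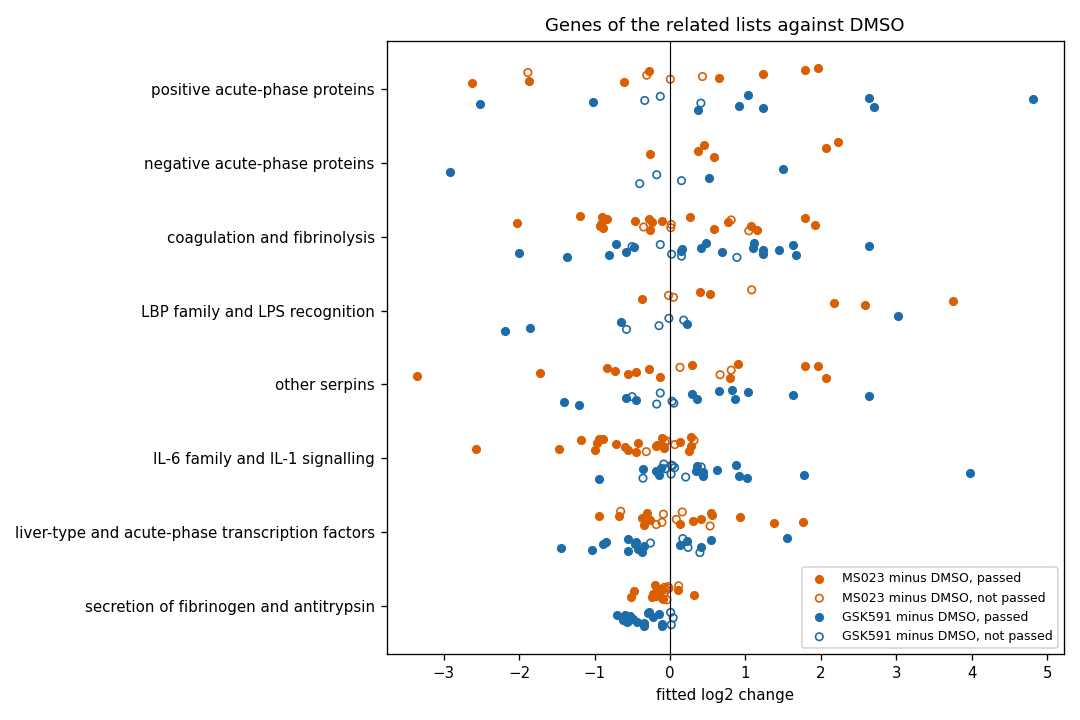
Fitted log2 change of every tested gene in the 8 lists, for MS023 minus DMSO (orange) and GSK591 minus DMSO (blue); filled points passed an edgeR adjusted p of 0.05, open ones did not, and a gene in several lists appears in each. Within most lists points lie on both sides of 0, but all 17 secretion genes that passed with GSK591 lie below it.

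Of 26 tested genes of interleukin-6 and interleukin-1 signalling, 16 fell and 4 rose with MS023, and 6 fell and 11 rose with GSK591 (medians -0.25 and 0.13). On log2(FPKM + 1), 10 of 21 fell and 2 rose with MS023. OSMR, the receptor subunit for oncostatin M, averaged 118 ± 3.29 CPM with MS023, 178 ± 4.42 with GSK591 and 230 ± 7.19 with DMSO, and fell with MS023 (log2 -0.96 ± 0.04, edgeR adjusted p = 7.78e-11) and with GSK591 (-0.36 ± 0.04, adjusted p = 1.06e-06). SOCS3, the feedback inhibitor that STAT3 induces, averaged 17.3 ± 0.514 CPM with MS023, 33.9 ± 0.226 with GSK591 and 33.2 ± 1.48 with DMSO. It fell with MS023 (-0.94 ± 0.05, adjusted p = 6.15e-10) and did not pass with GSK591 (0.03 ± 0.04, adjusted p = 0.555). OSMR had the group order of LBP and SERPINA3, and SOCS3 did not. How many of all genes have this order was not counted, and any link was not tested.

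STAT3 itself averaged 193 ± 0.451 CPM with MS023, 382 ± 9.39 with GSK591 and 207 ± 9.05 with DMSO. It rose with GSK591 (log2 0.88 ± 0.04, edgeR adjusted p = 1.3e-10), and its change with MS023 was -0.10 ± 0.04 (adjusted p = 0.0401), a call that 13 alternatives lost (adjusted p over all alternatives 0.0215 to 0.274). JAK1 changed by -0.17 ± 0.04 with MS023 (adjusted p = 0.00134) and 0.44 ± 0.04 with GSK591 (adjusted p = 1.02e-07). IL6R rose with GSK591 (0.42 ± 0.06, adjusted p = 1.84e-05, lost on unfiltered FPKM at 0.124) and with MS023 (0.27 ± 0.06, adjusted p = 0.00126, lost on FPKM at 0.129 to 0.279). IL6ST fell with MS023 (-0.19 ± 0.04, adjusted p = 0.000867) and with GSK591 (-0.16 ± 0.04, adjusted p = 0.00218), and both calls were lost on FPKM (adjusted p 0.140 to 0.202 with MS023, 0.0730 to 0.106 with GSK591). IL6 had 2 counts in the MS023 libraries, 36 in GSK591 and 2 in DMSO, too few for a fold.

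The liver-type transcription factors split with the fibrinogen chains for some members only. Of 21 tested, 8 rose and 6 fell with MS023, and 5 rose and 12 fell with GSK591 (medians 0.08 and -0.37); without MS023 3, 5 rose with MS023. FOXA1, a pioneer factor that opens liver and lung enhancers, averaged 166 ± 1.93 CPM with MS023, 31.3 ± 0.607 with GSK591 and 63.8 ± 2.78 with DMSO. It rose with MS023 (log2 1.38 ± 0.04, edgeR adjusted p = 7.62e-13) and fell with GSK591 (-1.03 ± 0.04, adjusted p = 1.6e-11). FOXA3 did the same, by 1.76 ± 0.07 with MS023 (adjusted p = 9.34e-11) and -1.45 ± 0.10 with GSK591 (adjusted p = 7.38e-09), as did HNF4G, by 0.93 ± 0.06 (adjusted p = 1.78e-08) and -0.46 ± 0.07 (adjusted p = 3.98e-05, lost on FPKM at 0.174 to 0.333).

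HNF4A, a master regulator of hepatocyte genes, averaged 78.6 ± 0.319 CPM with MS023, 54.8 ± 2.30 with GSK591 and 102 ± 2.34 with DMSO, and fell with both (log2 -0.37 ± 0.04, edgeR adjusted p = 8.7e-07; -0.89 ± 0.04, adjusted p = 5.1e-11). FOXA2 fell with GSK591 (-0.42 ± 0.06, adjusted p = 3.34e-05).

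CEBPB averaged 108 ± 10.2 CPM with MS023, 107 ± 6.89 with GSK591 and 137 ± 24.7 with DMSO. It fell with both (log2 -0.34 ± 0.10 with MS023, edgeR adjusted p = 0.00906, and -0.37 ± 0.10 with GSK591, adjusted p = 0.00454). Without DMSO 1 the MS023 call was lost (adjusted p = 0.0529), and without DMSO 1 and GSK591 3 the GSK591 call was lost (adjusted p = 0.0976). Unfiltered FPKM lost both calls (adjusted p = 0.129 with MS023 and 0.0576 with GSK591). CEBPD fell with GSK591 (log2 -0.56 ± 0.11, adjusted p = 0.000457), and CEBPA passed with neither (adjusted p = 0.26 with MS023 and 0.394 with GSK591). NR3C1, the glucocorticoid receptor, rose with GSK591 (0.22 ± 0.04, adjusted p = 0.00027).

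Of 20 tested secretory genes that fold and export fibrinogen and antitrypsin, 11 fell and 2 rose with MS023, and 17 fell and 0 rose with GSK591 (medians -0.10 and -0.35). Leaving out DMSO 2, DMSO 3 or any 1 of the MS023 libraries left 1 rising with MS023. HSPA5, the main endoplasmic reticulum chaperone, averaged 828 ± 26.4 CPM with MS023, 568 ± 8.21 with GSK591 and 873 ± 25.1 with DMSO, and fell with GSK591 (log2 -0.62 ± 0.03, edgeR adjusted p = 6.73e-10). The disulfide isomerases PDIA4 (-0.71 ± 0.04, adjusted p = 5.9e-10) and PDIA6 (-0.60 ± 0.04, adjusted p = 9.69e-09) fell with it. MCFD2, part of the cargo receptor for clotting factors and antitrypsin, fell with MS023 (-0.48 ± 0.05, adjusted p = 7.94e-07) and did not pass with GSK591 (0.04 ± 0.05, adjusted p = 0.449).

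Genes beside the 6 were compared by locus. PLRG1, a splicing factor gene 12.5 kb from FGB and the only other named gene of at least 1 CPM within 500 kb, changed by -0.04 ± 0.04 with MS023 (edgeR adjusted p = 0.326) and -0.00 ± 0.04 with GSK591 (adjusted p = 0.982). Around LBP, 10 genes were measured; 2 rose and 4 fell with MS023, and 2 rose and 5 fell with GSK591. TGM2, the crosslinking enzyme tissue transglutaminase, 179.8 kb from LBP, averaged 128 ± 4.17 CPM with MS023, 334 ± 21.8 with GSK591 and 484 ± 36.0 with DMSO. It fell with MS023 (log2 -1.92 ± 0.06, edgeR adjusted p = 3.55e-12) and with GSK591 (-0.53 ± 0.06, adjusted p = 1.09e-06). Around SERPINA1, of 5 neighbours, 3 rose and 0 fell with MS023, SERPINA6 the most, and 1 rose and 1 fell with GSK591. Around SERPINA3, of 3 neighbours, 2 rose and 0 fell with MS023, and 0 rose and 0 fell with GSK591. SERPINA6 and IFI27L2 are counted at both loci. The MS023 rise of IFI27L2 was lost without MS023 1 (edgeR adjusted p = 0.0895) and on FPKM (adjusted p 0.137 to 0.317).

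**Figure D5:**
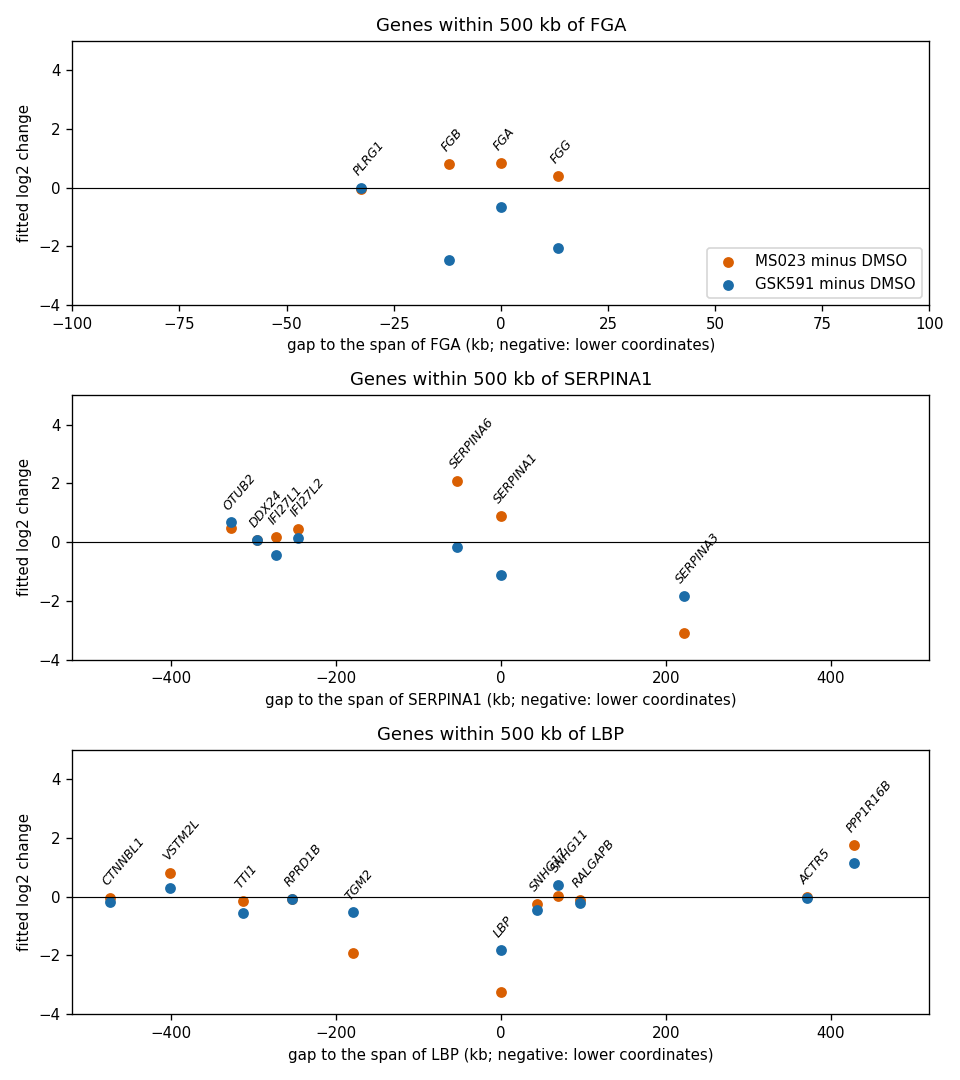
Fitted log2 change of the members and of named genes around them, for MS023 minus DMSO (orange) and GSK591 minus DMSO (blue), against the gap in kb to FGA, SERPINA1 or LBP. PLRG1, beside the fibrinogen genes, lies close to 0 for both inhibitors, and TGM2, near LBP, lies below 0 for both.

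All 5 epithelial markers were expressed, and their sum was 5075 to 5276 CPM with MS023, 7522 to 7791 with GSK591 and 6354 to 6481 with DMSO. With MS023, 1 rose and 4 fell, and with GSK591, 2 rose and 1 fell. The MS023 fall of CDH1 was lost with DESeq2 (adjusted p = 0.0524), on FPKM with limma (adjusted p 0.429 to 0.502) and under other alternatives. That of KRT8 was lost on unfiltered FPKM (limma adjusted p = 0.0613). KRT8 averaged 2576 CPM with MS023, 4083 with GSK591 and 2984 with DMSO. EPCAM had the group order of the fibrinogen chains, at 21.0 ± 1.44 CPM with MS023, 6.43 ± 0.233 with GSK591 and 13.5 ± 1.57 with DMSO (log2 0.64 ± 0.08, edgeR adjusted p = 6.77e-06, and -1.07 ± 0.09, adjusted p = 5.99e-08). The lung-lineage markers (NKX2-1, SFTPB, SFTPC, SFTPA1, SCGB1A1) summed to 0.325 to 0.833 CPM over all libraries. Of 8 hepatocyte markers, the sum was 42.8 to 47.5 CPM with MS023, 12.8 to 13.9 with GSK591 and 20.2 to 24.1 with DMSO, nearly all APOH (43.0, 12.2 and 20.7 CPM in MS023, GSK591 and DMSO libraries). ALB had 26, 23 and 9 counts and APOA2 1, 0 and 0 in MS023, GSK591 and DMSO libraries. The 6 leukocyte markers summed to 15.2 to 16.0 CPM, 26.3 to 27.2 CPM and 18.3 to 18.5 CPM in MS023, GSK591 and DMSO libraries, with PTPRC at 2 counts in each group. Only 2 of the 6, CD68 and ITGAM, could be tested, and both passed as higher with GSK591 and lower with MS023. The MS023 fall of CD68 was lost on FPKM with limma (adjusted p 0.133 to 0.264) and under other alternatives. That of ITGAM was lost on log2(FPKM + 1) with limma (adjusted p = 0.0759, and 0.155 with no filter). In MS023, GSK591 and DMSO libraries, 5 fibroblast and endothelial markers summed to 1.17 to 1.18, 2.16 to 2.45 and 1.09 to 1.30 CPM. The part of these markers in the results was not tested. GSK591 3 and DMSO 1 differed most from the other libraries of their groups, by chi-square per degree of freedom on counts. It was 37.2 and 33.6 for DMSO 1 against DMSO 2 and DMSO 3, and 7.1 between DMSO 2 and DMSO 3. For GSK591 3 against GSK591 1 and GSK591 2 it was 54.1 and 87.0, and 14.0 between GSK591 1 and GSK591 2. With both GSK591 3 and DMSO 1 left out, the GSK591 log2 differences were -2.37 for FGB, -2.03 for FGG and -0.62 for FGA. They were -1.07 for SERPINA1, -1.80 for SERPINA3 and -1.65 for LBP.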

How the data were processed

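The labels describe paired-end sequencing of rRNA-depleted total RNA from random hexamers in 9 libraries. The authors deposited a table of raw read counts per gene for all libraries and 9 tables of FPKM per gene in the layout of Cufflinks. Cutadapt, STAR, featureCounts, DESeq2 and hg19 are named per the submitters' processing notes; their versions, the annotation and the strand setting are not stated, so antisense and overlapping genes are uncertain. The 23 identifiers with a failed or capped FPKM were left out of the FPKM fits.

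Groups and replicate numbers came from the labels, and symbols and positions from the FPKM tables (48523 identifiers; 10 more symbols from a name table). Counts were fitted in R 4.3.3 with edgeR 4.0.16 (filterByExpr, minimum count 10 and total 15; TMM; quasi-likelihood, group only, all 9 libraries). P-values are two-sided and Benjamini-Hochberg adjusted over 18292 genes, with a threshold of 0.05. CPM values are TMM-scaled. The scripts were tested on simulated counts. Alternatives used limma 3.58.1 on log2(FPKM + 1) or log2(FPKM + 0.1), which understates changes of low genes, and DESeq2 1.42.0.

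The 6 genes, lists and tests were chosen with earlier results of these data known. The planned fit gives p-values for the 6 genes, but none is printed because the same contrasts chose them. Named list genes are up to 3 rises and 3 falls per list and comparison among calls of at least 1 CPM, plus set pathway steps, of which a selection is printed. Neighbours are named genes of at least 1 CPM within 500 kb, and likeness is Pearson r of log2(CPM + 0.5). No 2 libraries were near identical. Some genes that this rule takes are left out of the text.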

Additional observations from a re-analysis of the deposited data

How the results depend on the processing

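All 18 log2 differences of the 6 genes kept their direction under every alternative run: other scalings and filters, DESeq2, FPKM, only the libraries compared, each library left out in turn, and, chosen after seeing the data, without both DMSO 1 and GSK591 3. The low genes shrank on log2(FPKM + 1): LBP to -1.58, SERPINA3 to -1.60 and SERPINA1 to 0.59 with MS023, and to -1.15, -1.16 and -0.71 with GSK591. Genes called for MS023 over DMSO numbered 9327, against 5774 on log2(FPKM + 1), 5763 on log2(FPKM + 0.1) and 5470 on log2(FPKM + 1) with no filter. List genes called there numbered 92, against 60 on log2(FPKM + 1) and 60 on log2(FPKM + 0.1) (the FPKM filter also tested fewer list genes). With GSK591, rises among positive acute-phase proteins numbered 2 of 7 tested on log2(FPKM + 1), against 7 of 12, and the falls of the interleukin list with MS023 10 of 21, against 16 of 26. Leaving out 1 library gave 8012 to 9217 calls for MS023 over DMSO, and both libraries out gave 10564 for GSK591 over DMSO, against 11443. The share of calls that were higher with GSK591 was 48.2%, against 34.7% on FPKM, where the median of all genes shifted to -0.10, 43.5% on FPKM with no filter and 55.6% scaled by total counts; with MS023 it was 49.3%, against 56.3% scaled by total counts; MS023 over GSK591 it was 51.5%, against 63.4% on FPKM. Shares of counts in place of FPKM gave FGA 33.7%, 57.2% and 30.5%, FGB 41.0%, 20.4% and 37.9%, and FGG 25.3%, 22.3% and 31.5% in MS023, GSK591 and DMSO libraries, since long transcripts then weigh more.

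The labels do not say that replicate numbers pair the libraries. Deviations of same-numbered libraries correlated at -0.43 to 0.26. These values cannot show whether libraries were paired, because no differently numbered libraries were compared. With the replicate block, 8855 genes were called for MS023 over DMSO, 11145 for GSK591 over DMSO and 11642 for MS023 over GSK591, and 86, 93 and 100 list genes. It turned the direction of none of the 6 genes. SERPINA3 and LBP, with 21 to 41 counts per MS023 library, are limited by depth.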
